A study of Mus musculus with 3 samples.

Results

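Skin of the second day after cyclophosphamide was compared with untreated skin across all genes that both libraries could measure. Cyclophosphamide is an alkylating anticancer drug that damages the DNA of dividing cells. Whole skin came from male C57BL/6 mice 2 months old, and total RNA of that skin was made into 1 library a group. Depilation, which starts hair growth, is recorded for both groups, with 9 days from it to the injection. The day 0 group had received no drug, and the day 2 group was taken 2 days after an injection of 150 mg/kg into the peritoneum. The design text gives this dose, whereas the sample labels write it per km. The series holds 3 libraries, and these 2 were chosen by their labels. Hair growth had gone on for 2 more days in the treated skin, and untreated skin of that later day was not profiled, so the drug and the time cannot be told apart. How many mice were used for a library is not stated in the sources used here. Markers fitted the tissue label, with 17 genes of basal keratinocytes measured at a summed 6597 CPM (tags per 1000000 after scaling) at day 0 and 8015 CPM at day 2.

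Hair follicles in their growth phase hold some of the fastest dividing cells of the body, which is why chemotherapy causes hair loss. Matrix cells at the base of the follicle divide and mature into the hair shaft and the inner root sheath, the tube that guides it, under the control of Wnt and Hedgehog signals. When tissue is injured, monocytes enter it along chemokine gradients and mature into macrophages that clear dying cells, while complement and acute-phase proteins mark debris and microbes. Whole skin of the mouse also holds a thin sheet of skeletal muscle under the dermis.

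Each transcript was counted through a tag of 21 bases that begins at a CATG site. The day 0 library had 2731787 tags assigned to 17831 UniGene clusters and the day 2 library 2636804 tags in 17829 clusters. Of 20595 clusters listed in any table, 13812 had enough tags to be tested, and 12006 of these carried a gene name. A cluster was called higher or lower when its level changed 2-fold or more and an exact binomial test of the reads of both libraries gave a Benjamini-Hochberg adjusted p of at most 0.001. This is a test between 2 libraries rather than between conditions, and no difference has a replicate check. The intervals given after log2 ratios are exact 95% intervals that cover counting error only. In whole skin, fewer cells of a type and less RNA per cell cannot be told apart.

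The tags that carry the differences are given here for genes that stand for each group described later, because the tag is the item that was counted. Capitals mark the CATG site cut by NlaIII, and each tag is the one of its gene with the most copies. Genes that were higher at day 2 had these tags.
Lbp: CATGtttgacagggtgctggc
Ptx3: CATGtccctgtgggcaaacgg
Serping1: CATGggtcgtgtatatgaccc
Ccl12: CATGtctaggctgagagttcc
Ccl2: CATGaatactaaaatttctta
Trem2: CATGctctcccctcctccacc
Mmp3: CATGtgctatggcagaaccaa
Myog: CATGagtgccctgacctggac
Ankrd2: CATGccctggagcatcccgag

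Genes that were lower at day 2 had these tags.
Barx2: CATGggcctagagaagaaatt
Hoxb8: CATGcgcgctgtgagcattgt
Krt35: CATGcctcccctgccttcctg
Wif1: CATGatggtatagattttctt
Selenbp1: CATGatgcttcaaattgatgt
Aldh1a3: CATGcacctgcctaattagat
Apobec2: CATGccttctgtaatacggct

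Positions are from an exact match to GENCODE M21 transcripts on GRCm38. The Lbp tag lies in the 3' UTR, in exon 15 of 15, at chr2:158332257-158332277, and had 85 copies at day 0 and 777 at day 2. The Ptx3 tag lies in the coding part of exon 3 of 3 at chr3:66224899-66224919, with 45 copies at day 2 and no listing at day 0. The Serping1 tag is coding, in exon 8 of 8, at chr2:84765584-84765604 (323 and 1152 copies). Both chemokine tags are in exon 3 of 3, that of Ccl12 coding at chr11:82103220-82103240 and that of Ccl2 in the 3' UTR at chr11:82037250-82037270. The tags of Trem2 (chr17:48352085-48352105), Mmp3 (chr9:7455778-7455798) and Myog (chr1:134292150-134292170) lie in 3' UTRs, and that of Ankrd2 is coding (chr19:42044912-42044932). Among the genes that were lower, the Barx2 tag is in the coding part of exon 2 of 4 at chr9:31858764-31858784, with 323 copies at day 0 and 27 at day 2, and the Krt35 tag is coding in exon 7 of 7 at chr11:100092591-100092611 (3788 and 847 copies). The other tags lie in 3' UTRs, those of Hoxb8 at chr11:96285132-96285152, Wif1 at chr10:121100067-121100087, Selenbp1 at chr3:94944415-94944435, Aldh1a3 at chr7:66391440-66391460 and Apobec2 at chr17:48419447-48419467.

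In all, 477 clusters were called higher (3.45% of those tested) and 425 lower (3.08%). The clusters called higher held 3.37% of the day 0 tags and 8.43% of the day 2 tags, and those called lower held 7.32% and 2.97%. Most genes moved little. The median log2 ratio over all clusters tested was 0.01, the quartiles were -0.44 and 0.45, and 82.7% of clusters stood within 2-fold either way. At 4-fold or more, 111 clusters were higher and 60 lower. Ratios are plotted against level for the named clusters listed on both days. Calls were not spread evenly over the range of expression and fell mostly on the more abundant clusters. Of the 13812 clusters tested, 6804 reached 20 CPM on either day. That part held 398 of the 477 clusters called higher and 377 of the 425 called lower.

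**Figure D1:**
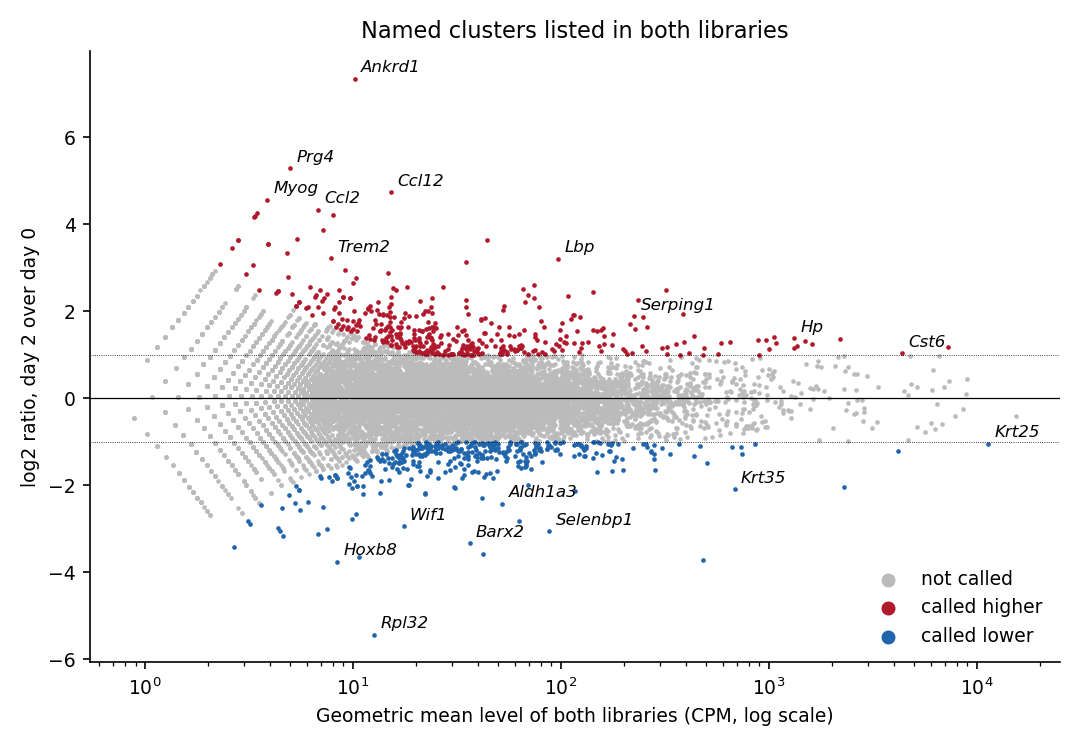
Each point is a named cluster listed in both libraries, with the log2 ratio of day 2 over day 0 against the geometric mean of its 2 levels (CPM, log scale). Red and blue mark clusters called higher and lower, dotted lines mark 2-fold, and Ankrd1 at 7.35 and Rpl32 at -5.43 are the farthest labelled points.

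Acute-phase and complement genes were higher at day 2. Of 10 measured acute-phase genes 5 were called higher and 0 lower, against 3.45% and 3.08% of all clusters, with a median log2 ratio of 2.23 and all 10 ratios above 0. The median was 1.71 with the 3 members not listed at day 0 set to 3 tags there. Those 3 of the 17 genes in the list passed the filter on low counts only through the later libraries. Their ratios above 0 followed from that and are not support. Serpina3n and Cp, with 2 and 3 tags at day 0, also passed it mainly through the later libraries. Lbp, which hands bacterial lipopolysaccharide to its receptor, had 89 tags at day 0 but 801 at day 2, a log2 ratio of 3.21 (2.90 to 3.55). The CATG site nearest its 3' end held 1.5% of its tags and gave a ratio of 2.23, which was not called. Hp, haptoglobin, which binds free haemoglobin, was the most abundant member, at 816 CPM at day 0 and 2126 CPM at day 2 (1.38, 1.31 to 1.45). Ptx3, a pentraxin made by activated local cells, was not listed at day 0 and had 47 tags at day 2. Saa2, a serum amyloid A gene whose tags it shares with Saa1, was likewise not listed at day 0 and had 48. Serpina3n, a protease inhibitor, had 2 tags and 20 (3.08, 1.33 to 6.51). The other 5 were not called. Serpina3m, a related inhibitor gene, was not listed at day 0 and had 12 tags at day 2, Cp, ceruloplasmin, had 3 and 8 (1.32), and ratios were 0.87 for Steap4, 0.41 for Socs3 and 0.11 for Orm1, whose tags are shared with Orm2.

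Of 14 complement genes 9 were called higher and 0 lower, with a median of 1.33, and all 14 ratios were above 0. The genes called came from several steps of the system. C1ra, a protease of the classical pathway, had 71 tags at day 0 but 229 at day 2 (1.73, 1.35 to 2.14). C3, the central component, had 61 and 211 (1.83, 1.42 to 2.27). Of the alternative pathway, Cfb had 122 and 407 (1.78, 1.49 to 2.09), through tags shared with the predicted gene Gm20547, and Cfp, properdin, had 95 and 254 (1.46, 1.12 to 1.82). The receptors C5ar1, with 9 and 39 tags, and C3ar1, with 39 and 100, were called higher at 2.10 and 1.40. So were regulators of the system. Serping1, the C1 inhibitor, had 328 and 1180 tags (1.89, 1.72 to 2.08), and Cd55, which dissolves convertases on cell surfaces, had 44 and 86 (1.01). C1qc was called at 1.27, while C1qb, with 23 and 48 tags, stood at 1.09 and was not called.

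Genes of myeloid cells were higher as a group. Of 23 measured macrophage and monocyte genes 13 were called higher and 0 lower, with a median of 1.21 and a summed level of 930 CPM at day 0 and 1774 CPM at day 2. Trem2, a lipid receptor of tissue macrophages, had 7 tags at day 0 but 67 at day 2 (3.22, 2.19 to 4.68). Msr1, a scavenger receptor, had 11 and 56 (2.34, 1.45 to 3.48). Fcer1g, the signalling chain shared by several antibody receptors, had 181 and 643 (1.87, 1.64 to 2.12), and the haemoglobin receptor Cd163 had 180 and 470 (1.43, 1.18 to 1.69). The list was not uniform, since its lowest ratio, that of Adgre1, which encodes the macrophage marker F4/80, was -0.17, and Csf1r, the receptor for macrophage growth factor, stood at 0.34. Markers of other leukocytes were measured too. T and NK cell genes had a median of 0.15 over 10 measured. The 2 of them called higher, Ptprc at 1.28 and Thy1 at 1.14, are made by other cells too, while Cd3d had 11 tags and 14 and Trac had 6 and 5. Of 3 neutrophil genes 0 were called, and the 1 B cell gene measured stood at -0.59. Mast cell genes had a median of 0.67, with Fcer1a (7 and 33 tags) and Cpa3 (59 and 117) called higher of 11, the latter not called at its 3'-most site (0.91).

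Among genes linked to alternatively activated macrophages the directions were mixed. Of 13 measured 6 were called higher and 2 lower. Cbr2, a carbonyl reductase, had 333 tags at day 0 but 1048 at day 2 (1.70, 1.52 to 1.89), and Gas6, a bridging ligand that lets phagocytes bind dying cells, had 602 and 1321 (1.18, 1.04 to 1.32). In contrast, Arg1, the arginine-degrading arginase, had 320 and 124 (-1.32, -1.63 to -1.02) and Retnla, a secreted resistin-like protein, had 43 and 12 (-1.75, -2.85 to -0.84). Genes of engulfment included Elmo1, with 19 and 94 tags (2.32, 1.63 to 3.15), and the cholesterol exporter Abca1, with 108 and 313 (1.58, 1.26 to 1.91), as 2 of the 3 called higher of 11.

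Of 13 measured CC chemokines, small proteins that draw leukocytes into tissue, 6 were called higher and 0 lower, with a median of 1.35. They sit in a pair of places on chromosome 11. At chr11:82035571-82116799 all 4 genes tested were called higher, in the order Ccl2, Ccl7, Ccl12 and Ccl8. Their starting levels differed widely. Ccl8 had 1894 tags at day 0 but 4005 at day 2, a ratio of 1.13, whereas Ccl12 had 8 and 220, a ratio of 4.74 (3.83 to 6.06). Farther along that chromosome, Ccl6 had 77 and 426 tags (2.51, 2.16 to 2.89) and Ccl9 had 234 and 670 (1.56, 1.35 to 1.79), the latter not called at its 3'-most site (0.70). Among chemokines not called, Ccl27a, made by keratinocytes, stood at -0.60 and Ccl21a, of lymphatic vessels, at -0.05. Of 6 other chemokines, of the CXC and CX3C classes, 1 was called higher and 1 lower, with a median of 0.23. Cxcl13, which attracts B cells, had 5 and 98 tags (4.21, 3.07 to 6.00), and Cx3cl1, the membrane-bound chemokine fractalkine, had 60 and 14 (-2.01, -3.01 to -1.19). Il4ra, the receptor chain for interleukins 4 and 13, had 106 and 441 tags (2.10, 1.80 to 2.43) and was 1 of 2 called higher among 23 cytokines and receptors.

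**Figure D2:**
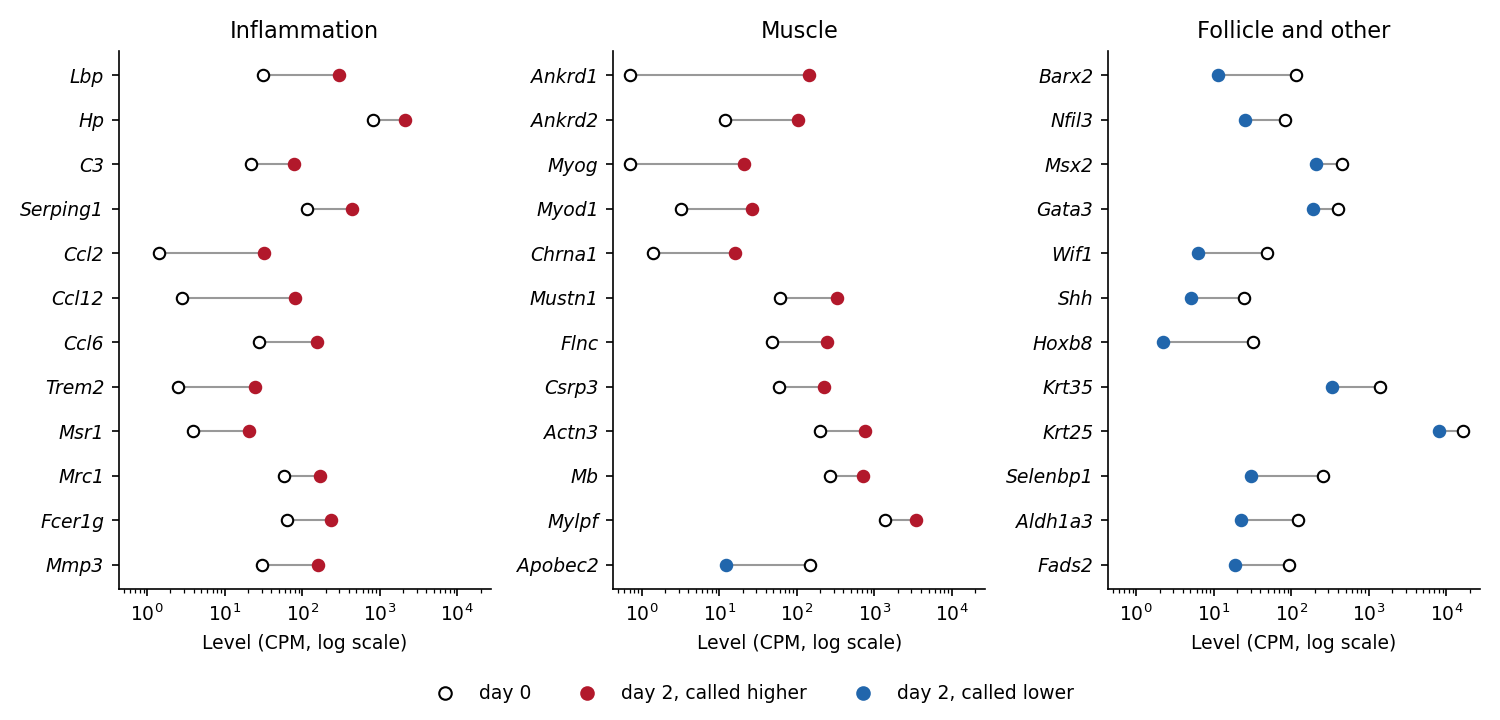
Levels in CPM (log scale) at day 0 (open circles) and day 2 (filled circles, red for higher and blue for lower) for 12 genes in each of 3 groups, 1 library a day and no error bars. Every inflammation gene plotted was higher at day 2, Apobec2 is the 1 muscle gene that was lower, and every gene in the third panel was lower. The genes were picked from those called, so these directions were set by the choice. Arg1, Retnla and Cx3cl1, called lower, and the follicle genes Cst6 and Krtap4-2, called higher, are not drawn.

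Interferon-stimulated genes, which encode antiviral proteins, had 6 of 28 called higher and 0 lower, with a median of 0.72. Rtp4 had 32 tags at day 0 but 126 at day 2 (2.01, 1.46 to 2.63), Ifitm1 had 62 and 210 (1.80, 1.39 to 2.24) and Ifi27l2a had 411 and 1244 (1.65, 1.48 to 1.81). The interferon response element, searched on both strands as TTTC, any 2 bases and TTTC again, with overlaps allowed, in the 250 bases before and 50 bases after gene starts from RefSeq (GRCm38.p6), was in 10 of the 21 members of the list that have an entry (47.6%). Over all tested genes with an entry it was in 309 of 8801 (3.5%), and over all genes called higher in 20 of 313 (6.4%). The share in the list counts members called and not called, so it describes the list and not the difference at day 2. Of the 3 called members with an entry, Ifit3 and Bst2 hold it. Their promoters are shown with the matched letters in capitals, that of Ifit3 at chr19:34583279-34583578 on the plus strand and that of Bst2 at chr8:71537423-71537722 on the minus strand.
Ifit3: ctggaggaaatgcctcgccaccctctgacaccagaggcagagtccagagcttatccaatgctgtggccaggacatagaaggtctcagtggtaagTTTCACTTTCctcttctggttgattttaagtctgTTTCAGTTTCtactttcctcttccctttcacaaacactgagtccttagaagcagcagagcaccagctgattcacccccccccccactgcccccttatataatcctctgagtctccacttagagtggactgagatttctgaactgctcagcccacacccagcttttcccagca
Bst2: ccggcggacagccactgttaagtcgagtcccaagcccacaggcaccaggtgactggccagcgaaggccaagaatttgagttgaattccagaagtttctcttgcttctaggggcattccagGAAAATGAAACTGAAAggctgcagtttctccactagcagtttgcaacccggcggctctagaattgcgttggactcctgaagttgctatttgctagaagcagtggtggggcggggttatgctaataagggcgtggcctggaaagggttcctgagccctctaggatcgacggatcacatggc
Ifit3 holds 2 separate matches and Bst2 overlapping ones. Ifit3 had 22 tags at day 0 but 79 at day 2, and Bst2 had 26 and 92. A match is a description of letters, not a measured binding site. A loose form of the NF-kB motif, GGG, any 3 bases and TCC, was in 75 of the 313 promoters of genes called higher and in 26.6% of all, and a longer form, GGG, any 5 bases and CC, in 65.8% and 72.1%.

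Muscle genes made up another large group that was higher at day 2. Of 30 measured genes of muscle stress and regeneration 15 were called higher and 1 lower, with a median of 1.66. The list holds 40 genes. Ankrd1, Myog, Chrna1 and Myod1, with 2, 2, 4 and 9 tags at day 0, passed the filter on low counts only with tags of the later libraries. Their ratios above 0 follow in part from that and are not support. Of 28 skeletal muscle genes, mostly of the sarcomere, 11 were called higher and 0 lower, with a median of 0.97, and all 28 ratios were above 0. Their summed level was 15575 CPM at day 0 and 31098 CPM at day 2. The part of this summed level in the other muscle results was not tested.

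Of the ankyrin repeat proteins that bind titin in the sarcomere, 3 were called higher. Ankrd1 had 2 tags at day 0 but 396 at day 2. Ankrd2 had 33 and 284 (3.13, 2.63 to 3.72). Ankrd23 had 35 and 424 (3.63, 3.15 to 4.19), through tags shared with the predicted gene Gm42417. The regulators of muscle formation Myod1, with 9 and 71 tags (2.96, 2.02 to 4.22), and Myog, with 2 and 57, were called higher together with Chrna1, the acetylcholine receptor subunit that denervated fibres make, with 4 and 44 (3.35). Other members were Mustn1, with 171 and 906 tags (2.45), the actin cross-linker Flnc, with 134 and 662 (2.35), the Z-disc protein Csrp3, with 164 and 603 (1.92), and Actc1, the cardiac and fetal actin, with 17 and 67 (2.00). The ubiquitin ligases of muscle wasting were higher too, Trim63 with 39 and 106 tags (1.48) and Fbxo32 with 67 and 143 (1.14). Apobec2, a muscle protein related to cytidine deaminases, went the other way, from 413 to 33 tags (-3.58, -4.15 to -3.08). Of 16 calcium-handling genes 6 were called higher and 0 lower. Among them were Trdn, triadin, with 71 and 302 tags (2.13), for which the 2.7% of tags nearest the 3' end alone gave no call, and the calcium store Casq1, with 495 and 1014 (1.08). Of 17 heat-shock genes the 4 called higher included Hspb7, with 87 and 392 tags (2.21), and Hspb6, with 699 and 1662 (1.30), both small heat-shock proteins abundant in muscle.

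**Figure D3:**
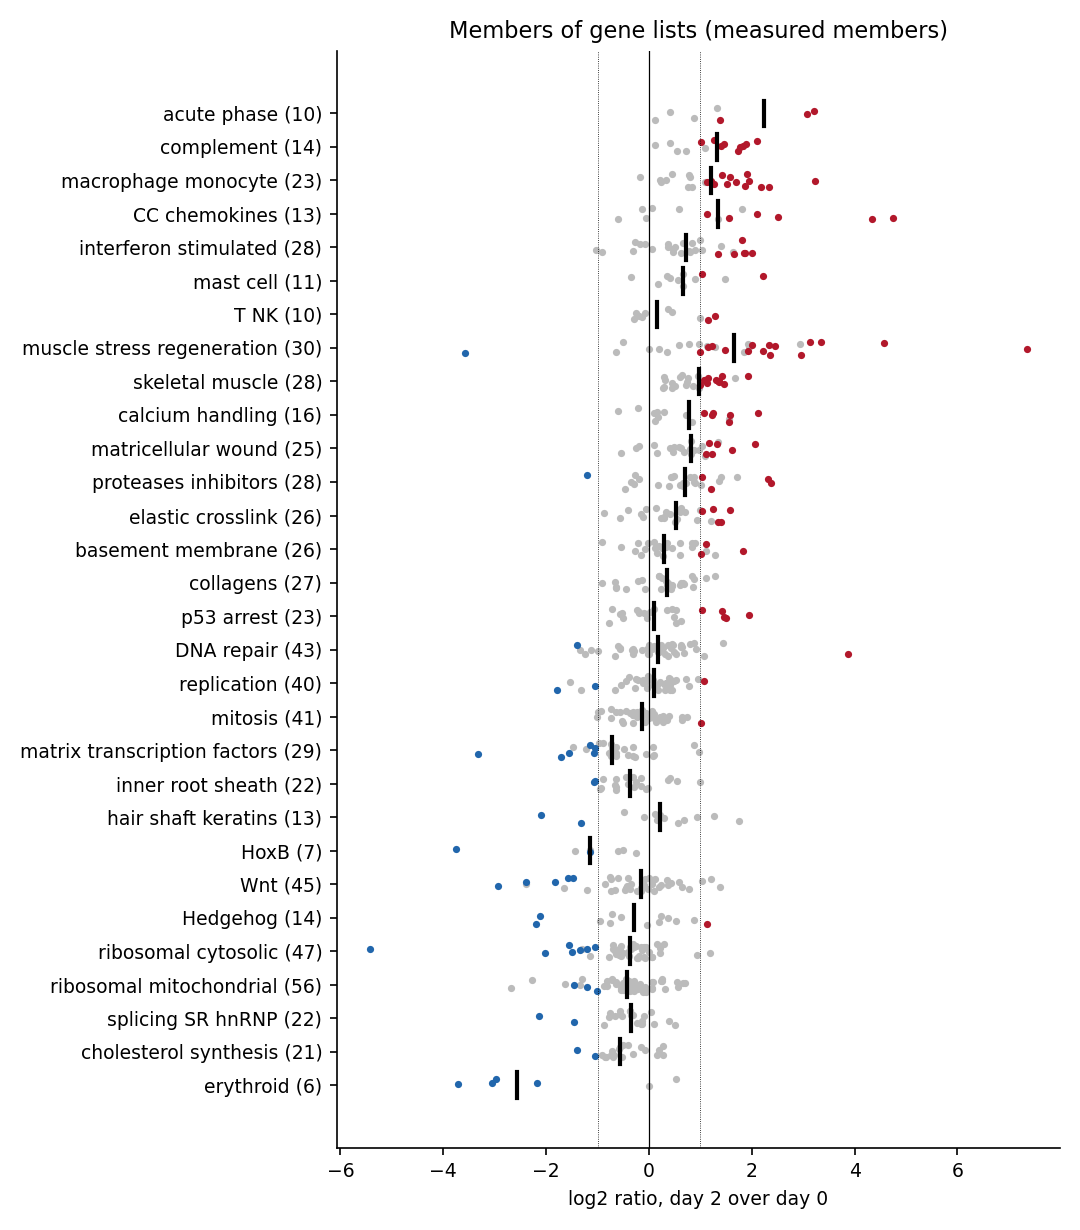
Each point is the log2 ratio, day 2 over day 0, of a measured member of a gene list (number measured in parentheses), red or blue where called higher or lower, and the black bar is the list's median. Members not listed in 1 library, such as Ptx3, Saa2 and Kif7, enter the medians but are not drawn as points. Acute-phase genes (median 2.23) and erythroid genes (-2.57) lie at the ends.

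Lists of matrix genes gave different numbers of calls, and a difference between kinds was not tested. Of 27 collagens 0 were called, near the 3.45% and 3.08% of all clusters, with a median of 0.36, and their ratios ran from -0.91 to 1.29. Medians were 0.30 for basement membrane genes and 0.52 for elastic fibres and cross-linking. They were 0.70 for proteases and inhibitors and 0.81 for matricellular and wound genes. Enzymes and regulators of matrix were higher in part. Of 28 proteases and inhibitors 4 were called higher and 1 lower. Mmp3, stromelysin, had 85 tags at day 0 but 430 at day 2 (2.38, 2.05 to 2.74), and the proteoglycan-cleaving Adamts5 had 120 and 268 (1.20). Of 25 matricellular and wound genes 6 were called higher, led by Spp1, osteopontin, with 11 and 46 tags (2.06). Of 26 genes of elastic fibres and cross-linking 5 were called higher, among them the lysyl hydroxylase Plod2, with 23 and 67 (1.57). Tgfbi, a secreted protein induced by TGF-beta, had 367 and 1066 tags (1.59, 1.41 to 1.76), while the receptor decoy Bambi had 619 and 294 (-1.02) and was not called when scaled by all kept tags. In the basement membrane, Itgb4, the integrin of hemidesmosomes, had 166 and 572 tags (1.83, 1.58 to 2.09), and the laminin chain Lama3 had 66 and 129 (1.01), not called with a pseudocount of 5 tags (0.96). Pi16, a marker of a fibroblast class, had 166 and 610 (1.92, 1.68 to 2.18), but the site nearest the 3' end, with 3.5% of its tags, stood at 0.99 and was not called.

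Further single genes had large differences. Prg4, lubricin, had 2 tags at day 0 but 95 at day 2 (5.30, 3.73 to 8.69). Adm, adrenomedullin, which widens vessels, had 15 and 110 (2.88, 2.14 to 3.81), and Lyve1, the hyaluronan receptor of lymphatic vessels and some macrophages, had 18 and 103 (2.53, 1.83 to 3.38). Cd38, an NAD-degrading enzyme, had 31 and 180 (2.57) and Atp12a, a proton pump subunit, had 85 and 499 (2.60, 2.27 to 2.95). Among genes called higher and named by tags of their own, Cst6, cystatin M/E, a protease inhibitor of follicle and epidermis, gained most in level, at 3048 CPM at day 0 and 6285 CPM at day 2 (1.04, 1.01 to 1.08). The skeletal muscle actin Acta1 gained more, at 4671 and 9219 CPM, but its ratio of 0.98 was under 2-fold and not called.

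Transcription factors of the follicle were lower at day 2. Of 29 transcription factors of the hair matrix 0 were called higher and 6 lower, with a median of -0.71 and 24 ratios below 0. Barx2, a homeobox factor, had 327 tags at day 0 but 31 at day 2 (-3.33, -3.93 to -2.82). Tfap2c, an AP-2 factor of skin, had 194 and 91 (-1.04). The others were Nfil3, Dlx4, Msx2 and Gata3, the last not called at its 3'-most site (-0.62). Of 13 shaft keratins 2 were called lower and 0 higher, with a median of 0.22 and 9 ratios above 0. Krt35 had 3968 and 901 tags (-2.09) and Krt36 had 582 and 224 (-1.33). The abundant Krt31, Krt33b and Krt34 stood at 0.22, 0.16 and 0.29 and were not called. The 22 inner root sheath genes had a median of -0.37, and their summed level was 45836 CPM at day 0 and 27826 CPM at day 2, of which Krt25 made up 16277 and 7902.

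A few signalling genes of the follicle were lower at day 2, most members of their lists not being called. Of 45 Wnt pathway genes 5 were called lower and 0 higher, with a median of -0.16, all 5 of them ligands or inhibitors named Wif1, Wnt10b, Wnt11, Nkd2 and Znrf3. Of 14 Hedgehog genes 3 were called lower and 1 higher, with 6 ratios above 0 and 8 below and a summed level of 331 CPM at day 0 and 356 CPM at day 2. The 1 higher was the co-receptor Gas1, with 143 and 300 tags (1.12), not called at its 3'-most site (0.97). Dhh, a ligand of the same family outside the list, was not listed at day 0, had 25 tags at day 2 and was called higher. Beside the ligand Shh and its inhibitor Hhip, Kif7, a kinesin of the cilium that relays the signal, had 20 tags at day 0 and was not listed at day 2. The receptor Ptch1 and the factor Gli1, both targets of the pathway, stood at -0.71 and -0.96 and were not called. Genes of the HoxB cluster were all on the lower side. Of 7 measured 2 were called lower, Hoxb8 with 90 and 6 tags and Hoxb6 with 106 and 46 (-1.15, -1.69 to -0.64), and the median was -1.14. The medians of the 5 HoxA and 6 HoxC genes were 0.05 and 0.20, with 0 called. Summed levels were lower at day 2 in each cluster. They were 162 CPM at day 0 and 75 CPM at day 2 for HoxB, 113 and 94 for HoxA, and 260 and 192 for HoxC.

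Several lists of protein synthesis, RNA processing and metabolism had medians below that of all clusters, and others did not. Of 47 cytosolic ribosomal protein genes 7 were called lower and 0 higher, with a median of -0.36 and 38 ratios below 0, and their summed level was 75183 CPM at day 0 and 48630 CPM at day 2. Many of their tags also occur in pseudogenes. For Rpl32 a coding tag with 244 and 5 copies carried the call. Of 56 mitochondrial ribosomal genes 3 were called lower and 0 higher, with a median of -0.42 and 44 ratios below 0. Of 22 splicing factors of the SR and hnRNP families 2 were called lower, Srsf7 with 688 tags at day 0 and 150 at day 2 (-2.14, -2.41 to -1.89) and Hnrnpa1 with 312 and 110 (-1.45). Of 21 cholesterol synthesis genes 17 had ratios below 0 and the median was -0.56. The 2 called lower were Mvk, mevalonate kinase, with 223 and 82 tags (-1.39, -1.78 to -1.02), and Acat2, with 313 and 147 (-1.04), the latter not called when scaled by all kept tags. Glycolysis genes had a median of 0.19 over 25, with 1 called lower, respiratory chain genes -0.04 over 47, with 1 called higher and 2 lower, and genes of the citric acid cycle and fatty acid oxidation -0.07 over 34, with 2 called lower. Of 15 genes of insulin-like growth factor signalling 2 were called higher and 0 lower, with a median of 0.29. The 18 sebaceous gland genes had a median of 0.29, with 13 ratios above 0 and a summed level of 2599 CPM at day 0 and 3330 CPM at day 2. Of these 1 was called higher, Dgat2l6, with 97 and 210 tags (1.16), and 1 lower, the fatty acid desaturase Fads2, with 259 and 51 (-2.28, -2.76 to -1.86). Of 23 adipocyte genes, with a median of -0.14, 1 was called higher, the hormone leptin (Lep), with 17 and 53 (1.66), and 1 lower, Dgat2, which makes triglycerides, with 75 and 19 (-1.90). Aldh1a3, which makes retinoic acid, had 341 and 61 (-2.42, -2.85 to -2.04).

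Some p53 target genes were higher at day 2, while calls among DNA repair genes were near the share over all clusters. Of 43 DNA repair genes 1 was called higher and 1 lower, against 3.45% and 3.08% of all clusters tested. Mgmt, which repairs alkylated guanine, was the former, and Lig3, a DNA ligase, was the latter, with 63 tags at day 0 and 23 at day 2 (-1.39), though not called at its 3'-most site (-1.34). Among p53 target genes linked to arrest 5 of 23 were called higher and 0 lower, with a median of 0.09, and among those linked to death 2 of 13 and 0, with a median of 0.43. The 5 were Ccng1, cyclin G1, with 31 and 117 tags (1.95), the epoxide hydrolase Ephx1, with 299 and 814 (1.49), Gtse1, with 45 and 120 (1.45), the phosphatase Ptp4a3, with 276 and 719 (1.43), and Zmat3, with 79 and 157 (1.03), the last not called with a pseudocount of 5 tags (0.99). Of the arrest genes not called, Cdkn1a had 97 and 91 tags (-0.04) and Mdm2 had 122 and 120 (0.02). In the arrest list 13 ratios were above 0 and 10 below. In the death list, Eda2r, a death receptor of the TNF family, had 2 tags and 26 (3.45). Bax, Bbc3 and Fas, which promote cell death, stood at -0.41, -0.34 and -0.27 and were not called. Of 40 replication genes 1 was called higher and 2 lower, the latter being Uhrf1, with 37 and 10 tags (-1.79), and its partner Dnmt1, the maintenance DNA methyltransferase, with 94 and 44 (-1.04), which was not called when scaled by all kept tags. Of 41 mitosis genes 1 was called higher and 0 lower, with a median of -0.14 and 24 ratios below 0. Their summed level was 2935 CPM at day 0 and 2536 CPM at day 2. The 1 called was Anln, at 1.01, which was not called with a pseudocount of 5 tags (0.95). Of 28 immediate-early genes 1 was called higher and 2 lower, the latter being Ier2, with 246 and 75 tags (-1.66), and Ier3, with 81 and 21 (-1.87).

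Erythroid genes, of red cells and their precursors, were the group with the lowest median, -2.57 over 6 measured. Of these 4 were called lower, Hba-a2, Hba-a1, Hbb-bs and Alas2, and 2 had ratios above 0, up to 0.53. The summed level was 1931 CPM at day 0 and 266 CPM at day 2. The globin gene Hba-a2, whose tags are shared with Hba-a1, made up 1757 and 133 CPM of it. Of 17 measured endothelial genes, of the cells that line vessels, 2 were called higher and 1 lower, with a median of 0.71, and their summed level was 282 CPM at day 0 and 358 CPM at day 2.

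Tags of a gene at different sites were compared with each other. Of 110 genes called higher that had more than 1 tag of 20 copies or more over both libraries, 91 had each such tag on the higher side. Of 81 called lower 66 had each on the lower side. The call of a gene comes from the sum of its tags, so agreement of its main tag is largely built in. These counts are therefore not separate support, and the share among genes not called was not taken. Only 3 of 3007 genes with several such tags had tags called in both directions when 13671 tags were tested singly. In Nfib, a transcription factor of follicle stem cells, a tag in the last exon 345 bases from the end of the annotated transcript had 504 copies at day 0 and 225 at day 2 (-1.11, -1.35 to -0.89). Tags in the same 3' UTR at 5571 and 3172 bases from that end had 71 and 157 copies (1.19) and 24 and 57 (1.28). In Abhd5, which activates fat breakdown, a 3' UTR tag at chr9:122379641-122379661 had 83 and 164 copies (1.03, 0.64 to 1.43), and a tag farther downstream at chr9:122381363-122381383 had 193 and 89 (-1.06, -1.45 to -0.70). In the tropomyosin gene Tpm1 a coding tag had 2290 and 5186 copies (1.23), and a 3' UTR tag had 162 and 73 (-1.10).

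**Figure D4:**
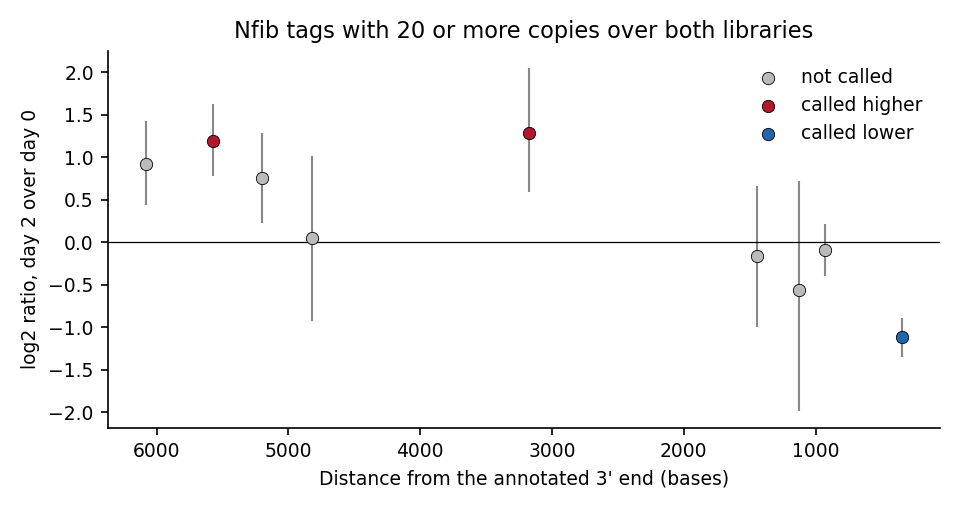
Log2 ratio, day 2 over day 0, of each Nfib tag against its distance in bases from the annotated transcript end, with exact 95% intervals of counting error. The tag nearest the end is lower (-1.11) and tags at 3172 and 5571 bases are higher (1.28 and 1.19).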

How the data were processed

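Whole-skin RNA was profiled by tag counting, with 1 library each for day 0 and day 2. Per the labels' protocols, cDNA of polyadenylated RNA was cut with NlaIII and MmeI, amplified by PCR and sequenced. The authors deposited raw tag counts per UniGene cluster, with the tags behind them, and TPM values, which per the file headers and totals are those counts per 1000000 kept tags (6030090 at day 0 and 5666060 at day 2, of which 45.3% and 46.5% are in the tables). Aligner and builds: not given in the sources used here. Tags with fewer than 2 copies are not listed, so an unlisted gene need not have had 0 tags, and no ratio is printed for it.

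Clusters were named by exact match of tags to GENCODE M21 transcripts (15066 by tags of 1 gene, 777 by shared tags, whose copies cannot be separated, and 194 by accession alone, which are uncertain). Counts were scaled by TMM over the 3 libraries (edgeR 4.0.16), and clusters with 15 or more tags over them were tested with a two-sided exact binomial test (SciPy 1.17.1). edgeR's quasi-likelihood test needs replicates. PCR copies are not independent molecules. Log2 ratios carry a pseudocount of 0.5 tags, and in lists a gene is represented by its cluster with the most tags. The test was tested on simulated data. The text names genes by the largest ratios, the largest differences in CPM and, per list, up to 5 called members and its first 3 genes. Others were chosen after their values were seen. Members and lists were chosen with earlier results of these data known, and lists overlap. Promoters are from RefSeq.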

Additional observations from a re-analysis of the deposited data

How the results depend on the processing

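With 1 library a group, no library could be left out. No paired analysis was possible because each group holds 1 library. The numbers called higher and lower, 477 and 425, stayed within 1.5 times under 10 other settings of scaling, filter, tag choice and pseudocount, from 371 (3'-most site alone) to 532 (scaled by all kept tags) higher and from 367 (exact tags) to 425 lower, and summing all clusters of a symbol, a setting chosen after seeing the data, gave 417 and 383. A fold minimum of 1.5 gave 801 and 859, and a minimum of 4 gave 111 and 60. Assuming a spread between animals in edgeR's exact test (coefficient of variation), with adjusted p at 0.05, gave 149 and 96 at a coefficient of 0.2, and 5 and 1 at 0.4. Those 5 were Ankrd1, Saa2, Ptx3, Prg4 and Ccl12, and the 1 lower was Rpl32. Of these genes, Ankrd1, Prg4 and Rpl32 had no tags at the 3'-most site at day 0 or day 2, so their calls rest on other sites. Of 227 named genes called, 198 stayed called on the same side in every setting of scaling, filter, tags and pseudocount that tested them. The others kept their direction but lost the call in some setting. Genes with too few tags at the 3'-most site were not tested in that setting.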

Other observations

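Called genes that neighbour each other within 100000 bases and moved the same way formed 9 runs of 3 or more. Beside the chemokine genes, a run at chr19:11516512-11604849 held Ms4a6b, Ms4a4d and Ms4a6d, membrane proteins of the Ms4a family, and all 3 genes tested there were called higher. At chr11:99590461-99665960, 3 of 10 tested genes were called higher, the keratin-associated proteins Krtap1-3, Krtap4-2 and Krtap4-6, and 0 lower. The HoxB run at chr11:96281905-96306910 held Hoxb8, Hoxb6 and Hoxb5os, an RNA named for lying antisense to Hoxb5, with 3 of 5 tested called lower and 0 higher. Neighbours share no test here, and the runs were chosen after their values were seen.

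Abundant genes that were lower included Ucp2, a mitochondrial carrier, at 1148 CPM at day 0 and 477 CPM at day 2 (-1.27, -1.36 to -1.18), S100a14, a calcium-binding protein of epithelia, at 1077 and 495 CPM (-1.12), and Jup, plakoglobin of desmosomes, at 979 and 453 CPM (-1.11). Prdx5, a peroxidase, stood at 678 and 317 CPM (-1.10). Among abundant genes that were higher, Igfbp7, which binds insulin-like growth factors, stood at 901 and 2067 CPM (1.20, 1.13 to 1.27).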
